A study of Mus musculus with 24 samples.

Results

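The genes described here encode the proteasome, the protease complex that degrades proteins tagged with ubiquitin. They are the 50 genes of 27179 in the deposited table whose symbol has the form Psm, a letter from a to g, and a number. Of these, 19 encode the core particle (Psma and Psmb), 24 the regulatory particles and their chaperones (Psmc, Psmd and Psme), and 4 the chaperones that assemble the core (Psmg). The other 3 symbols that the pattern takes are not subunits: Psmf1, an inhibitor of the core, and Psmc3ip and Psme3ip1, which are named for partners of subunits. The study profiled trimethylation of histone H3 at lysine 4 (H3K4m3), a mark of active promoters, by chromatin immunoprecipitation and sequencing in mouse brain, heart, kidney and liver. Each organ was taken either as formalin-fixed, paraffin-embedded tissue (FFPE) or flash frozen. The labels give 12 H3K4m3 samples, 8 FFPE and 4 frozen, and 12 input samples that were not used here. The values come as 8 columns, called libraries below: 1 FFPE and 1 frozen library for each of the 4 organs. The sources used here do not give genotype, strain, sex, age or the animal behind each sample, nor any treatment other than preservation.

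The core particle is a barrel of stacked rings, with alpha subunits at its ends gating the entrance and beta subunits inside, some of which cut the substrate. The regulatory particle caps the barrel, recognises ubiquitin, and unfolds the substrate with a ring of ATPases. Interferon induces alternative catalytic beta subunits that replace the constitutive ones and form the immunoproteasome, which makes peptides for display on class I molecules of the major histocompatibility complex.

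All 50 genes passed the filter for the test, a mean log2 value of at least 0, which 25680 genes of the table passed. Depth ranged between 3388631 and 5275085 reads in FFPE libraries and between 1792394 and 2976029 reads in frozen ones. A member had between 12 and 579 reads in a library, with a median of 141. Only 13 members had 100 or more reads, a counting error of at most 10%, in every library. Values are the deposited log2 CPM, read counts scaled to a common library size with a small prior count, and a difference between groups is a difference of these log2 values. Most of each organ's own markers were higher there: 5 of 6 brain, 4 of 6 heart, 4 of 6 kidney and 6 of 6 liver markers passed. The heart marker Ryr2 had a log2 difference of 0.28 in heart and passed as higher in brain, at 0.75. The kidney marker Nphs1 was nearly level in kidney, at 0.03. A gene is said to pass at a Benjamini-Hochberg adjusted p under 0.05 over all tested genes, from limma's linear model with organ and preservation. Each combination had 1 library, and the labels do not say whether libraries came from separate animals. The p-values therefore reflect only how far these 8 libraries depart from an organ term plus a preservation term. For this spread limma also draws on the other genes (3 residual and a median of 11.1 prior degrees of freedom). The spread may be technical, or a preservation difference that varies between organs. A single preservation term was shared by the 4 organs. In whole tissue, fewer cells that carry the mark and less mark per cell cannot be told apart.

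The promoter sequences below, from RefSeq on GRCm38.p6, show the gene ahead of its start. They are those of the catalytic subunit Psmb5, its alternatives Psmb8 and Psmb11, Psmb9, and the assembly chaperone Psmg4. Psmb8 and Psmb9 are the members that passed between organs, Psmg4 had the lowest value in FFPE against frozen tissue, and Psmb11 was 1 of 2 that were higher; Psmb5 is shown as the constitutive counterpart. Each is the 250 bases before the annotated start, written 5′ to 3′ in the direction of the gene, with every CG pair in capitals. Psmb5 is at chr14:54617996-54618245 on the minus strand, Psmb8 at chr17:34197945-34198194 on the plus strand, Psmb11 at chr14:54625060-54625309 on the plus strand, Psmb9 at chr17:34187331-34187580 on the minus strand and Psmg4 at chr13:34162714-34162963 on the plus strand.
Psmb5: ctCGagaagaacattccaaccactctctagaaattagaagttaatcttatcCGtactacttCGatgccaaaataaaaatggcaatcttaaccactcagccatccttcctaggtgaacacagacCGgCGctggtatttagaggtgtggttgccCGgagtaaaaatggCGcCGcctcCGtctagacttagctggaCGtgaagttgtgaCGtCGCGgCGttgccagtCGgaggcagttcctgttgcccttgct
Psmb8: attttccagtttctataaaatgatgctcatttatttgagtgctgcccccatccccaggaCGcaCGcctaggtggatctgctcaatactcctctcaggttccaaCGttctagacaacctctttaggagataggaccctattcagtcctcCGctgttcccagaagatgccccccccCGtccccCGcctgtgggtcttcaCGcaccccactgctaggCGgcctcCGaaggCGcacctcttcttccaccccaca
Psmb11: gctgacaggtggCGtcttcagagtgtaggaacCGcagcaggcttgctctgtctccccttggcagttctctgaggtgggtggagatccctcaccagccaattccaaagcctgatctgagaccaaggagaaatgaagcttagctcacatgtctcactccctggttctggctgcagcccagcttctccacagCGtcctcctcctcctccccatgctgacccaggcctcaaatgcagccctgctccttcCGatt
Psmb9: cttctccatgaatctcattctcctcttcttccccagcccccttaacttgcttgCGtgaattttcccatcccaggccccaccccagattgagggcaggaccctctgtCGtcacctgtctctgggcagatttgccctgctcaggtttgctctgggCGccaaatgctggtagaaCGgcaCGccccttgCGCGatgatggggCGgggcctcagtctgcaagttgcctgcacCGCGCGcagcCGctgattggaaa
Psmg4: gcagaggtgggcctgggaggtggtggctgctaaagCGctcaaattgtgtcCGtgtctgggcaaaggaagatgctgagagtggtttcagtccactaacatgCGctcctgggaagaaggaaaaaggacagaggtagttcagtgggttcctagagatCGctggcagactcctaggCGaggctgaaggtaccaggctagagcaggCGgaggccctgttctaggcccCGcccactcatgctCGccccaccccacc

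In these stretches Psmb5 had 15 CG pairs, Psmb8 10, Psmb11 4, Psmb9 12 and Psmg4 8. CG pairs make up CpG islands, where H3K4m3 is usually found. Over windows from 250 bases before to 50 bases after the start, 42 of the 50 members had a RefSeq promoter entry. Those not matched were Psma8, Psmb1, Psmb2, Psmb7, Psmc3, Psmd3, Psmd7 and Psmg2. The 42 windows held a median of 19 CG pairs, against 13 over the 18458 genes of the table with a window. Of the members, 38 of 42 had 10 or more, against 56.5% of those genes. The 4 members below that limit were Psme3ip1 with 1 pair, Psmb10 and Psma6 with 3 each, and Psmb11 with 4. The number of CG pairs was nearly unrelated to the difference between FFPE and frozen tissue over the 42 members (r = 0.0637, a description across genes that share libraries).

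Of 5 motifs searched on both strands of these windows, none belonged to all members. The nuclear respiratory factor site (GCGCANGCG) occurred in 7 of 42 windows, 16.7%, against 8.74% of all windows. The interferon-stimulated response element (GAAANNGAA) occurred in 6, 14.3%, against 8.17%; among them were Psme1 and Psmg4, and Psmb8, Psmb9 and Psmb10 were not. The core of the antioxidant response element (TGACNNNGC) was in 6, among them Psmb5 and Psmb6, a share of 14.3% against 13.3%. A CCAAT box was in 15, 35.7% against 39.1%, and a TATA box (TATAAA) in 4, Psmb8 among them, 9.52% against 13.1%. A match is a run of letters at any position in the window and not a bound site. Distance from the start was not considered, also for the TATA box. A gene starting on the other strand within 1000 bases was found for 6 members, against 10.2% of all genes. The start of Psmb9 lay 226 bases from that of the peptide transporter gene Tap1, and the start of Psma7 19 bases from that of Ss18l1. The annotated spans of 10 members overlap another gene, against 24.3% of all genes, and their reads may be shared with it. These were Psma3, Psma4, Psmb5, Psmc3ip, Psmd1, Psmd10, Psme1, Psme3ip1, Psme4 and Psmf1.

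In brain, 2 of the 50 genes had less H3K4m3 than the other organs had on average, the immunoproteasome subunits Psmb8 and Psmb9, and 0 had more. Over all tested genes, 4.53% passed as lower in brain and 5.53% as higher, so the count itself is near the background. Psmb8 encodes the inducible counterpart of Psmb5 (chromosome 17, 34198195 to 34201454). Its log2 value was 3.61 in FFPE brain and 4.14 in frozen brain. In the other organs it was 5.49 in FFPE heart and 6.12 in frozen heart, 4.88 in FFPE kidney and 5.69 in frozen kidney, and 5.54 in FFPE liver and 6.10 in frozen liver. Both brain libraries lay below all 6 others, and kidney lay between brain and the pair of heart and liver in both preservation types. Over 2 brain and 6 other libraries Psmb8 was 3.38-fold lower in brain, or -1.76 ± 0.21 on the log2 scale (SE, limma adjusted p = 0.000102). The difference was -1.69 within FFPE tissue and -1.83 within frozen tissue.

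Psmb9, the inducible counterpart of Psmb6 (chromosome 17, 34182030 to 34187330), had the same order of organs. It stood at 3.34 in FFPE brain and 3.35 in frozen brain, against 4.89 in FFPE heart, 4.86 in frozen heart, 3.97 in FFPE kidney, 4.59 in frozen kidney, 4.90 in FFPE liver and 5.49 in frozen liver. Brain was again below every other library. The log2 difference was -1.44 ± 0.28, a 2.71-fold lower value (limma adjusted p = 0.00354). Without frozen brain, which held 24 reads of Psmb9, the difference was -1.24 and no longer passed (limma adjusted p = 0.196), and 1 member passed instead of 2; without frozen liver 4 passed, with Psmd3 and Psme1 added. Of all tested genes, 12.2% had brain libraries that did not overlap the others; of the 50 members only these 2 did.

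The third inducible catalytic subunit, Psmb10, the counterpart of Psmb7, differed less. Its value was 5.93 in FFPE brain and 7.00 in frozen brain; the other organs spanned 6.23 to 6.60 in FFPE and 7.49 to 7.77 in frozen tissue. Brain was the lowest organ within each preservation type, and the log2 difference of -0.52 ± 0.17 did not pass (limma adjusted p = 0.0745). The interferon-inducible activator subunits Psme1 and Psme2, which together open the core in place of the regulatory cap, differed by -0.60 ± 0.21 and -0.32 ± 0.20 in brain, and neither passed. All 5 interferon-inducible members were below the other organs' mean in both FFPE and frozen tissue, with a median of -0.68 in FFPE and -0.60 in frozen libraries. Negative values in both preservation types were found for 32.8% of all tested genes.

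**Figure D1:**
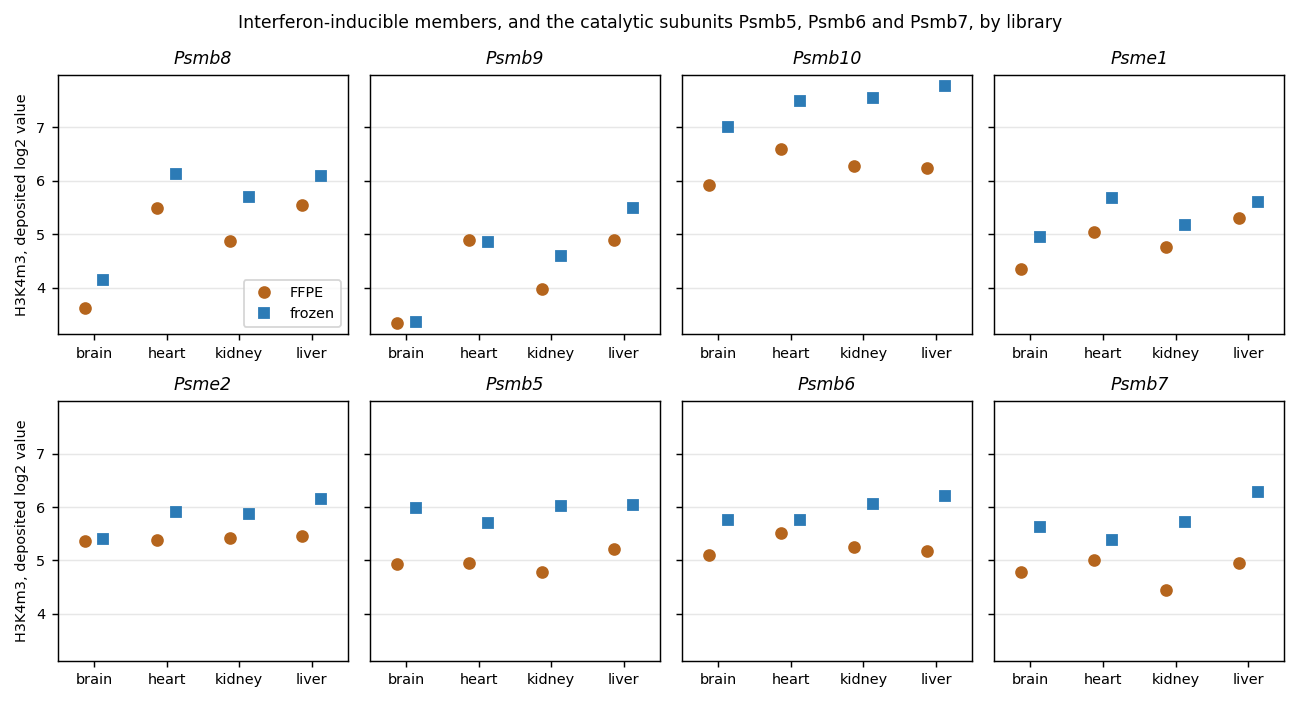
Deposited log2 H3K4m3 values of the 5 interferon-inducible members and of the 3 constitutive catalytic subunits in each organ, with the FFPE library as a circle on the left and the frozen library as a square on the right of each pair. Psmb8 and Psmb9 are lowest in brain in both preservation types (3.61 and 4.14, 3.34 and 3.35), while Psmb5 in brain (4.93 and 5.98) lies within the range of the other organs.

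The constitutive catalytic subunits did not show this difference. In brain, Psmb5 differed from the other organs by -0.00 ± 0.20, Psmb6 by -0.23 ± 0.21 and Psmb7 by -0.09 ± 0.23, and none passed. Psmb5 had log2 values of 4.93 in FFPE brain and 5.98 in frozen brain. In the other organs it ranged between 4.78 and 5.21 in FFPE and between 5.71 and 6.05 in frozen tissue, so that brain lay inside both ranges. The 14 constitutive core genes together had a median of -0.20 in brain and 0 of them passed.

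Psmb8 and Psmb9 lie in a stretch of 34292 bases on chromosome 17 that also holds Tap1 and Tap2, the subunits of the transporter that brings peptides to class I molecules. Tap1 was 2.86-fold lower in brain (log2 difference -1.51 ± 0.17, limma adjusted p = 7.66e-05) and Tap2 2.40-fold lower (-1.26 ± 0.20, limma adjusted p = 0.000855). Tap1 stood at 5.11 in FFPE brain and 5.74 in frozen brain and between 6.31 and 7.53 in the other libraries. Which part of a gene was counted is not stated, and whether reads between the starts of Psmb9 and Tap1 count for both was not tested. Of the 16 genes listed for class I antigen processing and interferon signalling, Tap1 and Tap2 included, 7 passed as lower in brain and 0 as higher, with a median of -0.42. H2-K1, a class I heavy chain, differed by -1.78 ± 0.20 and Irf1, an interferon-induced transcription factor, by -1.34 ± 0.20.

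Immune cells carry the immunoproteasome constitutively, and most of their markers also had lower values in brain. Of the 14 markers 12 were below the other organs' mean, 11 of them in both preservation types, and the median was -0.46, close to that of the class I genes. By the test 0 were lower and 1 was higher (Coro1a, by 1.66 ± 0.34, limma adjusted p = 0.00539). Their summed level was 334 CPM in FFPE brain and 263 CPM in frozen brain. In the other organs it lay between 348 and 413 CPM in FFPE and between 236 and 330 CPM in frozen libraries. No marker was at 0 reads; the lowest, Cd52, had 3 reads in frozen brain. The part of immune cells in the brain difference was not tested.

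The members as a whole had slightly negative values in brain. Of the 50, 42 had a log2 difference below 0, against 50.8% of all tested genes, and the median was -0.17 against -0.01. With both liver libraries left out, an alternative chosen after seeing the data, the median was -0.10 against -0.001. In both preservation types 29 of 50 were below 0, against 32.8% of all tested genes. The core had a median of -0.20, the regulatory genes -0.17 and the assembly chaperones 0.03. Psmd3, a lid subunit of the regulatory particle, had the next lowest value, -0.90 ± 0.29, and did not pass (limma adjusted p = 0.0713). It had 17 reads in frozen brain. The highest values in brain were those of Psmb11 (0.54 ± 0.34), Psmd9 (0.20 ± 0.21) and Psmc5 (0.15 ± 0.22), none of which passed. Among ubiquitin-proteasome genes outside the pattern, 28 of the 29 listed were in the table. Of these, 1 was lower in brain, the stress-response factor Nfe2l2 (-1.57 ± 0.19, limma adjusted p = 0.000117), and 1 was higher, the shuttle protein gene Ubqln2 (0.93 ± 0.17, limma adjusted p = 0.00261). Nfe2l1, which drives proteasome gene transcription when the proteasome is inhibited, differed by -0.32 ± 0.17 and did not pass.

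**Figure D2:**
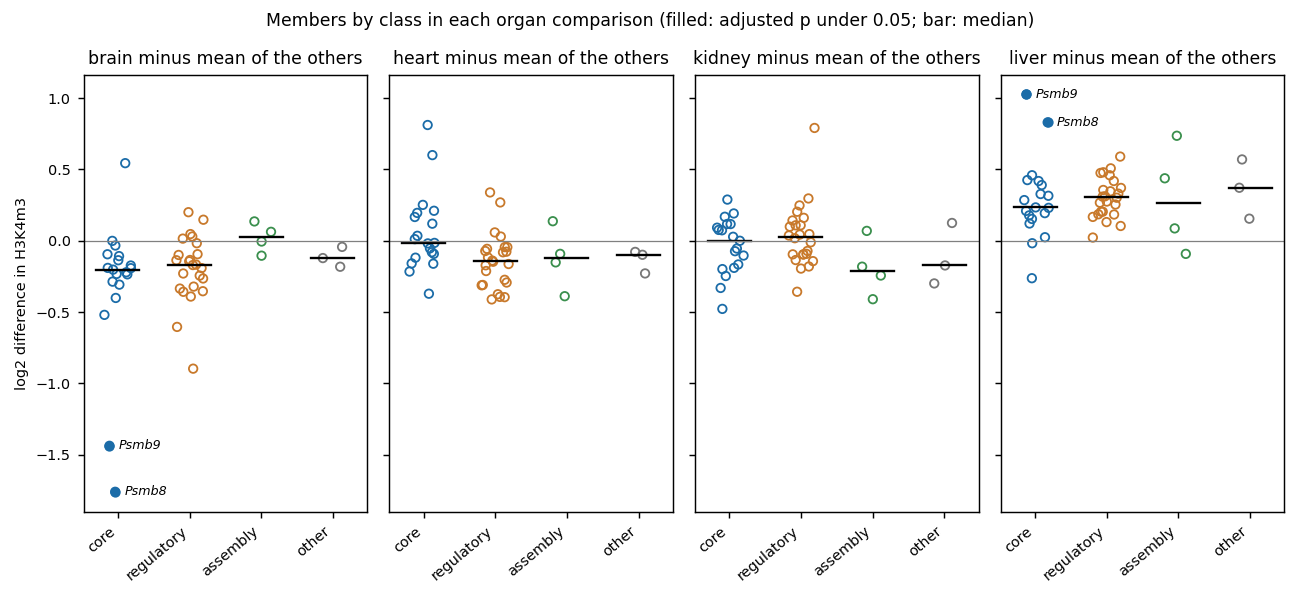
Log2 difference in H3K4m3 between each organ and the mean of the other organs for each member, by class, with filled points for adjusted p under 0.05 and bars for class medians. Psmb8 and Psmb9 are the only filled points, low in brain (-1.76 and -1.44) and high in liver (0.83 and 1.03), and most liver points lie above 0.

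Heart and kidney were each set against the other 3 organs, and 0 of 50 members passed in either by limma. Over all tested genes, 2.57% passed in heart and 1.21% in kidney. At an unadjusted limma p under 0.05 there were 2 members in heart (Psmb8 and Psmb9) and 1 in kidney (Psmd3). The share of all tested genes under that threshold was not set beside these counts. The highest in heart were Psmb8 (0.81 ± 0.21, limma adjusted p = 0.0562), Psmb9 (0.60 ± 0.28) and Psme1 (0.34 ± 0.21). Leaving out either liver library, Psmb8 passed in heart (0.83 with an adjusted p of 0.0149 without FFPE liver, and 0.79 with 0.0320 without frozen liver). With both brain libraries left out, also chosen after seeing the data, the heart difference was only 0.25 for Psmb8 and 0.14 for Psmb9. The lowest in heart were Psmd9 (-0.41 ± 0.21), Psmd7 (-0.39 ± 0.22) and Psmd14 (-0.39 ± 0.26), from the regulatory class. In kidney the highest was Psmd3, at 0.79 ± 0.29 (limma adjusted p = 0.314), ahead of Psmd6 (0.30 ± 0.20) and Psma2 (0.29 ± 0.27). The lowest in kidney were Psmb11 (-0.48 ± 0.34), Psmg2 (-0.41 ± 0.24) and Psmc5 (-0.36 ± 0.22). The median over the 50 members was -0.09 in heart and -0.01 in kidney, against -0.04 and 0.02 over all tested genes. Nfe2l2 passed as higher in heart (0.79 ± 0.19), and Ubqln4 as higher in liver (0.75 ± 0.17). In heart 36 of 50 members were below 0, against 53.8% of all tested genes. The mean that heart was set against includes liver, where most members were high, and brain, where most were low. With both liver libraries left out, an alternative chosen after seeing the data, the median over the members in heart was -0.01, against -0.03 over all tested genes. With both brain libraries left out, chosen in the same way, it was -0.15, against -0.03. The part of either organ in the heart values was not tested.

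Liver had more H3K4m3 at 2 of 50 members and less at none, again Psmb8 and Psmb9; over all tested genes 5.13% passed as higher and 4.84% as lower. Psmb9 was 2.04-fold higher in liver, a log2 difference of 1.03 ± 0.28 (limma adjusted p = 0.0300), and Psmb8 1.78-fold higher, 0.83 ± 0.21 (limma adjusted p = 0.0207). Brain was among the organs that liver was set against, and its part in these 2 calls was not tested. With both brain libraries left out, an alternative chosen after seeing the data, the difference was 0.27 for Psmb8 and 0.62 for Psmb9, and 0 members passed (adjusted p = 0.590 and 0.271). Neither gene passed without any 1 of FFPE kidney, frozen brain, frozen heart, frozen kidney or frozen liver. Over the fits without 1 library the difference lay between 0.78 and 0.88 for Psmb8 and between 0.83 and 1.22 for Psmb9. The class I genes Tap1 (0.92 ± 0.17) and H2-K1 (1.01 ± 0.20) also passed as higher in liver, as did H2-D1 (0.80 ± 0.18) and Irf1 (0.87 ± 0.20), 4 of 16 of that list. Of the 14 immune cell markers, Lcp1 passed as higher in liver (1.51 ± 0.25). Only 1 of the 50 members had liver libraries that did not overlap the others, against 9.56% of all tested genes.

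Small differences in the same direction ran through most members in liver. Of the 50, 47 were above the mean of the other organs, against 49.2% of all tested genes, with a median of 0.29 against -0.01. All 24 regulatory genes were above 0, with a median of 0.31, as were 17 of the 19 core genes, with a median of 0.23, and 3 of the 4 assembly chaperones, with a median of 0.26. In both FFPE and frozen tissue 37 of 50 were above 0, against 30.5% of all tested genes. The shift was smaller in FFPE, with a median of 0.14, than in frozen libraries, with 0.48. Liver was the highest organ for 23 members in FFPE tissue, against 27.7% of all tested genes, and for 42 members in frozen tissue, against 32.5%. Psmb9 and Psmb8 were high in both preservation types, at 0.83 and 0.88 in FFPE and 1.22 and 0.78 in frozen libraries. Over the 50 members the liver difference in FFPE and in frozen libraries had r = 0.041, and over all tested genes r = 0.352, given as descriptions across genes. The median was 0.27 without the brain libraries, 0.17 after quantile normalization and 0.39 with each library centred on its median, which brought the median of all tested genes to 0.09.

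Single members above 0 in liver included Psmg3, an assembly chaperone, at 0.74 ± 0.25 (limma adjusted p = 0.0881), which was 5.30 in FFPE liver and 6.86 in frozen liver. Its other FFPE values lay between 4.69 and 5.09 and its other frozen values between 5.43 and 6.20, so liver was highest in each preservation type. The lowest in liver were Psmb11 (-0.26 ± 0.34), Psmg1 (-0.09 ± 0.24) and Psma2 (-0.02 ± 0.27), and none passed. Other groups of widely expressed genes had positive medians in liver as well. These were 0.43 for 83 cytoplasmic ribosomal protein genes, of which 15 passed as higher, 0.17 for 78 mitochondrial ribosomal protein genes, of which 2 passed, and 0.21 for 12 RNA polymerase II subunit genes, of which 0 passed.

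**Figure D3:**
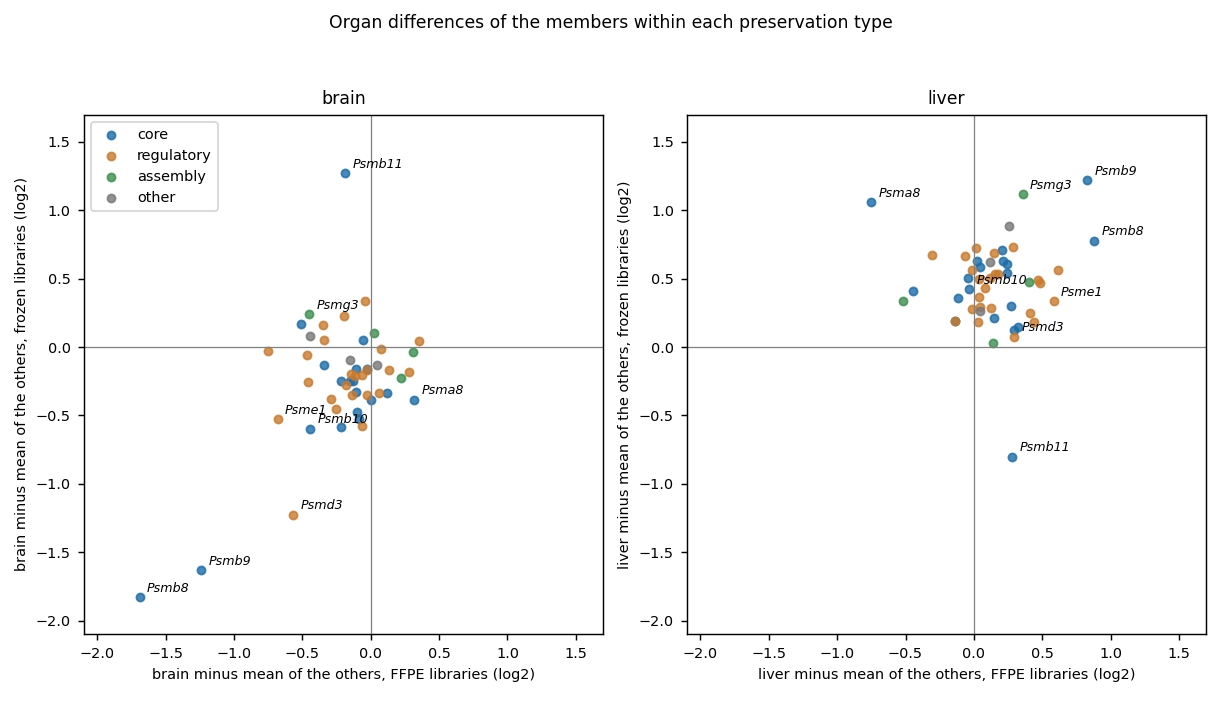
Log2 difference between brain (left) or liver (right) and the mean of the other organs, for each member, in FFPE libraries on the horizontal axis and in frozen libraries on the vertical axis. In brain Psmb8 (-1.69 and -1.83) and Psmb9 (-1.24 and -1.63) stand apart at the lower left, and in liver most members lie above 0 on both axes.

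By their median the members varied less between organs than genes at large. The difference between the highest and the lowest organ had a median of 0.48 in FFPE and 0.71 in frozen libraries over the 50 members, against 0.79 and 1.11 over all tested genes. This range also grows with counting error, and the genes were not matched for level. The tested genes go down to a mean log2 value of 0. The part of level in the smaller range of the members was not tested. Some members varied more: in frozen libraries the range was 2.14 for Psmb9, 1.98 for Psmb8, 1.83 for Psmd3, 1.56 for Psmb11, 1.53 for Psma8 and 1.43 for Psmg3. The correlation of the brain differences between FFPE and frozen tissue was r = 0.519 over 50 members and r = 0.059 over the 48 without Psmb8 and Psmb9, given as descriptions across genes of the same libraries.

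More members differed with preservation than with organ. In FFPE tissue 34 of 50 members carried less H3K4m3 than in frozen tissue and 2 carried more; over all tested genes 21.3% passed as lower and 16.5% as higher. The median log2 difference was -0.66, against 0.18 over all tested genes, so members lay 0.84 below the genes at large. The genes at large were not matched to the members for level, and over all tested genes this difference fell with the mean log2 value (r = -0.618). Over genes with a mean log2 value of at least 3, the median of all genes was -0.11. The difference was below 0 for 46 of 50 members, against 43.1% of all tested genes. It was below 0 in all 4 organs for 38, against 26.6%, and above 0 in all 4 for 3, against 26.7%. FFPE and frozen values did not overlap for 29 of 50, against 30.3%. FFPE and frozen tissue also differed in chromatin preparation and possibly in library kit, so these cannot be told apart from fixation. In every organ the FFPE library had more reads than the frozen one. After quantile normalization, which brought the median of all genes to 0.00, 20 members were lower and 3 higher with a median of -0.41, against 13.5% and 12.8% of all tested genes. Of the 36 that passed, 22 did so after quantile normalization and 16 under each of the 14 alternatives tried.

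The lowest was Psmg4, an assembly chaperone that pairs with Psmg3 to build the alpha ring (chromosome 13, 34162964 to 34178172), whose promoter is printed above. It stood at 4.49, 4.19, 4.20 and 4.43 in FFPE brain, heart, kidney and liver, against 5.92, 6.0, 6.32 and 6.11 in frozen brain, heart, kidney and liver. The FFPE values were alike and all lay more than 1 log2 unit under the lowest frozen one. Psmg4 was 3.39-fold lower in FFPE tissue, or -1.76 ± 0.19 on the log2 scale over 4 FFPE and 4 frozen libraries (SE, limma adjusted p = 0.000114). All 4 assembly chaperones passed as lower, with a median of -1.0, and did so after quantile normalization too, with a median of -0.99.

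Among core genes 14 of 19 were lower and 1 higher in FFPE tissue, with a median of -0.69. Psmb10 stood at 5.93, 6.60, 6.27 and 6.23 in FFPE brain, heart, kidney and liver, against 7.00, 7.49, 7.55 and 7.77 in the frozen libraries of these organs. The groups did not overlap, and the difference was -1.19 ± 0.15 (limma adjusted p = 0.000164). Psma5, an alpha ring subunit, stood at 5.20, 5.49, 4.94 and 5.48 in FFPE brain, heart, kidney and liver, against 6.10, 6.49, 6.54 and 6.68 in the frozen ones. Here too the groups were apart, and the difference was -1.17 ± 0.17 (limma adjusted p = 0.000317).

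The beta ring subunits Psmb2 and Psmb4, which do not cut substrates, were 2.24-fold and 2.15-fold lower in FFPE tissue, and the alpha subunit Psma6 2.10-fold lower. All 3 constitutive catalytic subunits passed: Psmb5 at -0.97 ± 0.17, Psmb7 at -0.96 ± 0.20 and Psmb6 at -0.69 ± 0.18. Psmb6 did not pass after quantile normalization (adjusted p = 0.101), nor without FFPE kidney or frozen kidney (0.0548 and 0.0581). Of the inducible ones, Psmb8 was lower by -0.63 ± 0.18 (limma adjusted p = 0.0146), but did not pass after quantile normalization. It did not pass without FFPE kidney (adjusted p = 0.0879), frozen kidney (0.0950) or frozen heart (0.0515). Psmb9 differed by -0.30 ± 0.24 and did not pass.

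Regulatory genes had a median nearer 0 than core genes. Of the 24, 13 were lower and 1 higher, with a median of -0.51. After quantile normalization this became 5 lower and 2 higher with a median of -0.23, where the core had 10 lower and 1 higher with a median of -0.51; the difference between the classes was not tested. The median in the single organs lay between -0.64 in heart and -1.04 in liver for the core, and between -0.30 in heart and -0.69 in liver for the regulatory class. For the assembly chaperones it lay between -0.82 in heart and -1.61 in liver, so the order of the 3 classes was the same in each organ. By role, 8 of 11 subunits without ATPase activity and 3 of 3 chaperones of the regulatory particle (Psmd5, Psmd9 and Psmd10) were lower, as were 2 of 6 ATPases and 0 of 4 activators, beside 21.3% of all tested genes. After quantile normalization these counts were 3 of 11, 1 of 3, 1 of 6 and 0 of 4, beside 13.5%, and differences between the roles were not tested. Psmc3, an ATPase of the base, was 1.83-fold lower (-0.87 ± 0.14, limma adjusted p = 0.000593) and Psmd8, a lid subunit, 1.93-fold lower (-0.94 ± 0.16, limma adjusted p = 0.000782).

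The activator Psme4, a large protein that caps the core without ubiquitin or ATP, was nearly level. It stood at 6.67, 6.46, 6.70 and 6.65 in FFPE brain, heart, kidney and liver, against 6.67, 6.63, 6.46 and 6.95 in the frozen libraries of these organs. The groups overlapped and the difference was -0.06 ± 0.15 (limma adjusted p = 0.762), but 0.42 after quantile normalization, which passed as higher in FFPE tissue (adjusted p = 0.0208).

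**Figure D4:**
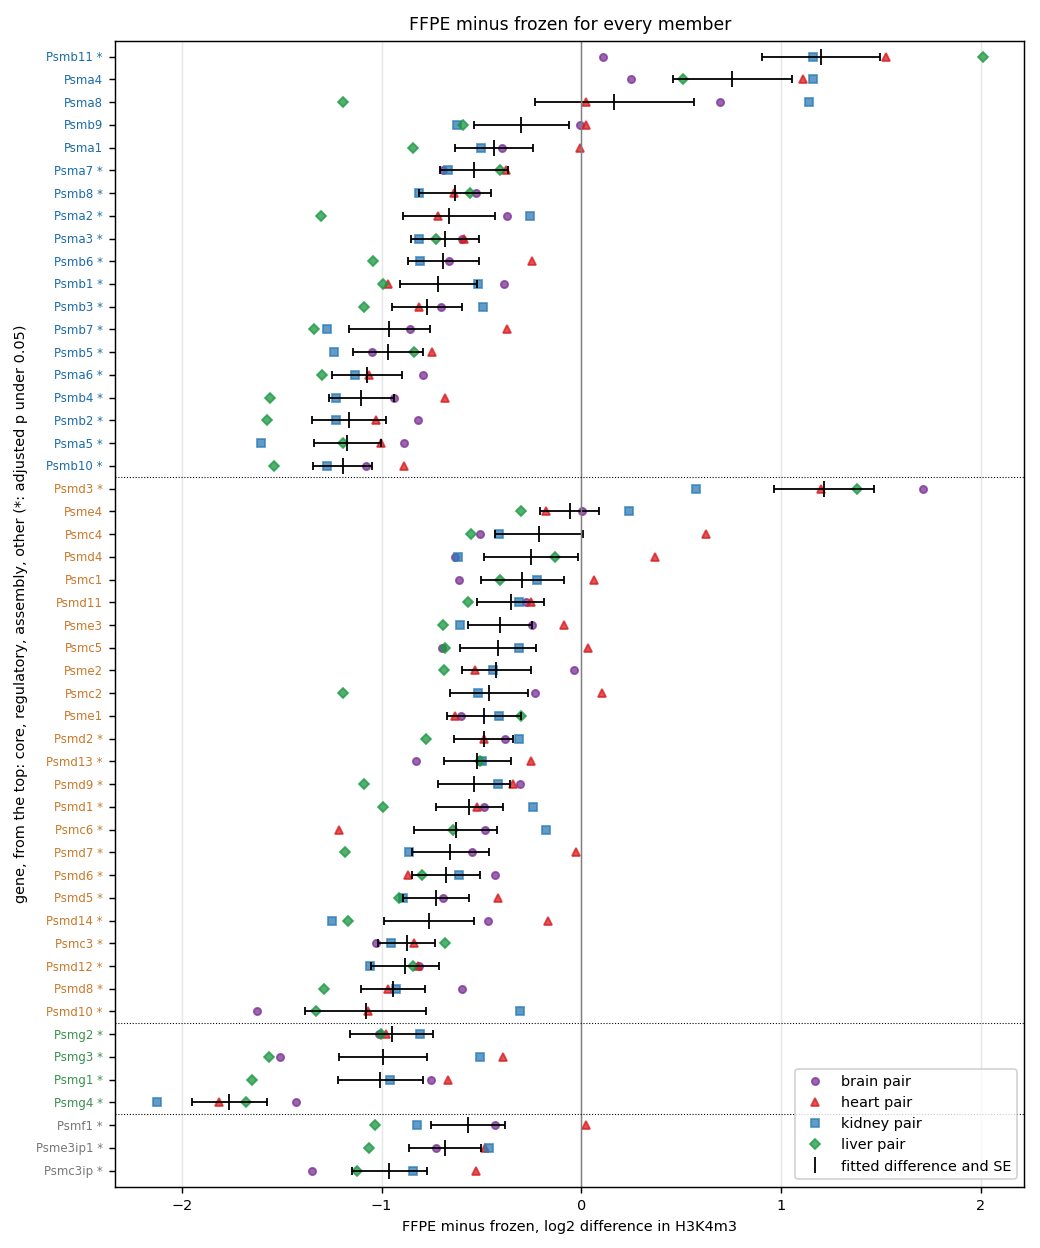
Log2 difference in H3K4m3 between FFPE and frozen tissue for each member, with coloured points for the 4 organ pairs, a black bar with its SE for the fitted difference, and a star for adjusted p under 0.05; dotted lines separate core, regulatory, assembly and other genes. Nearly all points lie left of 0, with Psmg4 farthest left (-1.76), and Psmb11 and Psmd3 are to the right (1.20 and 1.22).

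The 2 genes higher in FFPE tissue were Psmd3 and Psmb11. Psmd3 stood at 4.57, 4.93, 5.27 and 5.22 in FFPE brain, heart, kidney and liver, against 2.86, 3.73, 4.70 and 3.84 in the frozen libraries of these organs. FFPE was higher in each organ, although FFPE brain was under frozen kidney, and the difference was 1.22 ± 0.25 (limma adjusted p = 0.00255). Psmb11 encodes the catalytic beta subunit of cortical thymus epithelium and lies next to Psmb5 on chromosome 14 (54625310 to 54629556). It stood at 4.81, 5.25, 4.57 and 5.15 in FFPE brain, heart, kidney and liver, against 4.70, 3.73, 3.41 and 3.14 in the frozen ones, a difference of 1.20 ± 0.30 (limma adjusted p = 0.00697). The pair of brain libraries was nearly level, and FFPE was higher in the other organs.

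Psma4, an alpha subunit, was above 0 in all 4 organs as well. It stood at 3.76, 4.41, 4.37 and 4.04 in FFPE brain, heart, kidney and liver, against 3.51, 3.30, 3.21 and 3.53 in the frozen libraries of these organs. The groups did not overlap, but the difference of 0.76 ± 0.30 did not pass (limma adjusted p = 0.0585). These genes had few reads in frozen tissue: 17 to 57 for Psmd3, 22 to 62 for Psmb11 and 17 to 29 for Psma4 per frozen library. Over the 50 members the difference between FFPE and frozen tissue and the mean log2 value had r = -0.432, and over all tested genes r = -0.618, given as descriptions across genes. The part of read depth in these differences was not tested.

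Psma8, an alpha subunit of the testis, had the lowest mean value of the members. It stood at 3.63, 3.48, 3.64 and 2.83 in FFPE brain, heart, kidney and liver, against 2.94, 3.46, 2.50 and 4.03 in the frozen libraries of these organs. The FFPE library was lower in liver and higher in kidney, and the fitted difference of 0.17 ± 0.40 did not pass. It had 12 to 41 reads in a frozen library. The 3 symbols that are not subunits were lower in FFPE tissue too: Psmc3ip, a meiotic recombination factor, by -0.96 ± 0.19, Psme3ip1, a partner of the activator Psme3, by -0.68 ± 0.18, and Psmf1 by -0.57 ± 0.19. Psmf1 did not pass without any 1 of the FFPE or frozen libraries of brain, kidney or liver.

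Genes that act with the proteasome had a like difference in FFPE tissue. Of the 28 ubiquitin-proteasome genes outside the pattern, 21 were lower and 0 higher, with a median of -0.68. Rps27a, a ubiquitin fusion gene, differed by -1.06 ± 0.17, and Ddi2, the protease that activates Nfe2l1, by -0.97 ± 0.16. Akirin2, which brings the proteasome into the nucleus, differed by -0.90 ± 0.16, and Txnl1, a thioredoxin bound to the proteasome, by -0.94 ± 0.16. Other widely expressed gene groups had medians close to this: -0.69 for cytoplasmic ribosomal protein genes (57 of 83 lower, 1 higher), -0.81 for mitochondrial ribosomal protein genes (57 of 78 lower, 0 higher) and -0.65 for RNA polymerase II subunit genes (8 of 12 lower, 1 higher). The 16 class I genes had 8 lower and 2 higher with a median of -0.44, and 0.00 after quantile normalization. Among them H2-D1 differed by -1.43 ± 0.15, Calr by -1.08 ± 0.16 and Nlrc5, an activator of class I genes, by 1.21 ± 0.19. The 14 immune cell markers ran the other way, with 7 higher, 0 lower and a median of 0.76. Among them Itgam differed by 1.07 ± 0.20 and Ptprc by 0.77 ± 0.20. This direction was not limited to immune markers. The organ markers also had medians above 0, at 0.71 (heart), 0.67 (kidney), 0.40 (liver) and 0.25 (brain). The median over all tested genes was 0.18. The part of immune cells in the members' difference was not tested.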

How the data were processed

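The authors deposited 1 normalized log2 value per gene and column. The submitters' processing notes list Bowtie2, featureCounts, limma and mm10, with no role for any. The sources used here give no versions, no counted part of a gene, and not whether an FFPE column merges the 2 FFPE samples of its organ. The columns name no antibody and were taken as H3K4m3 from the titles of the table and series. The deposited log2 values were log2 of reads plus 0.5 over a scaled library size; whole reads came back within 0.001 for 100% of values. They were used as deposited.

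Differences were fitted with limma 3.58.1 in R 4.3.3 (organ and preservation, 8 libraries, 3 residual degrees of freedom, empirical Bayes with intensity trend) on genes with a mean log2 value of at least 0; each organ was set against the mean of the other 3. Adjusted p-values are Benjamini-Hochberg over 25680 genes. The fit was run on simulated reads with differences planted in brain only and none by preservation. This check does not show how the fit performs on these data. Reads amplified from 1 molecule are not independent, so counting errors are a lower limit.

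Coordinates and promoters are RefSeq's, GRCm38.p6; all 50 members matched the gene table, and 10 overlap another annotated gene (24.3% of all genes do). Of the pattern's symbols in that table, 7 are not analysed here. Named were members that passed (for preservation the 8 with the smallest p), the 3 highest and lowest per comparison, the inducible, tissue-restricted and catalytic subunits and Psme4, the members with the highest and lowest mean value, the 3 symbols that are not subunits, and up to 4 passing genes per other list; where text was clearer, others of these lists were named after their values were seen. Members and lists were chosen with earlier results of these data known. Alternatives covered normalization, filter, precision weights, intensity trend and leaving out each library.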

Additional observations from a re-analysis of the deposited data

Results flagged for a closer look

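Psma8, the alpha subunit of the testis, had opposite preservation differences in a pair of organs: FFPE minus frozen was -1.19 in liver and 1.14 on the log2 scale in kidney, both beyond the limit of 1 set for such a case. The difference between the organs was not tested, since each rests on 1 FFPE and 1 frozen library, with 30 and 41 reads in FFPE and frozen liver and 69 and 12 reads in FFPE and frozen kidney. No other of the 43 named members met this limit.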

How the results depend on the processing

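No paired analysis was possible because the columns carry no replicate number, other than the pairing by organ that the model already holds, and values already on the log2 scale left no pseudocount to vary. Of 728 alternatives over 51 single-gene results, 603 kept direction and side of the threshold, 104 no longer passed, 20 newly passed and 1 reversed: Psme4 in FFPE against frozen, -0.06 and 0.42 after quantile normalization. Quantile normalization gave 5 members in brain (Psmb10, Psme1 and Psmd3 added), 1 in heart and 23 in FFPE against frozen; without the intensity trend there were 1 in brain, 0 in liver and 23 in FFPE against frozen. Without both liver libraries, an alternative chosen after seeing the data like its counterpart for brain, 4 passed in brain and 2 in heart; without both brain libraries 0 passed in liver. Leaving out 1 library in turn gave 1 to 4 in brain, 0 to 1 in heart, 0 in kidney, 0 to 5 in liver and 25 to 33 in FFPE against frozen. Psmb8 in brain passed in all 15 alternatives (adjusted p 1.03e-05 to 0.0460). Psmb9 in brain no longer passed without frozen brain or the intensity trend. Over all tested genes FFPE against frozen gave 4240 higher and 5477 lower, and 3027 higher and 6241 lower with libraries centred on their median; the members' split moved little, at 2 higher and 38 lower. The causes were not tested. For most alternatives the counts over all tested genes are not given here, so the members' counts cannot be set against them. Depth limits Psma8, Psma4, Psmd3, Psmb11 and Psmb9 most: their lowest libraries had 12 to 24 reads.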
